A study of Mus musculus with 12 samples.

Results

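The galectin transcripts described here are those of *Lgals1*, *Lgals3*, *Lgals8* and *Lgals9*, together with *Lgals3bp*, the gene of the galectin-3 binding protein. They were chosen by symbol, as 5 of the 55487 genes in the table of counts, and each symbol was matched to 1 Ensembl identifier. RNA-seq was performed on 12 libraries of microglia from YARG reporter mice at postnatal day 13, in which YFP marks cells that use the *Arg1* locus. The tissue was labelled as brain (BF/striatum), where BF is the basal forebrain. Per the study's methods, cells were sorted as CX3CR1+ and CD206- and then split by YFP into ARG1+ and ARG1- microglia. There were 4 groups of 3 libraries each, ARG1- females, ARG1- males, ARG1+ females and ARG1+ males, all of the same reporter strain and with no treatment in the labels. Tissue of several mice of 1 sex was pooled for each library, so a library stands for a pool and not for a single animal.

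Galectins are lectins that bind galactose-containing sugar chains on glycoproteins and glycolipids. They lack a signal peptide, lie in the cytosol and the nucleus, and are released by a route outside the endoplasmic reticulum, after which they can crosslink receptors at the cell surface. Galectin-1 is a prototype galectin with a single carbohydrate-binding domain that acts as a dimer, galectin-3 is the chimera type with a long N-terminal tail, and galectin-8 and galectin-9 are tandem-repeat types. In the brain, galectin-3 is known as a product of activated and phagocytic microglia, and galectin-9 is known as a ligand of the immune receptor TIM-3.

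Of the 5 members, *Lgals3* was higher and *Lgals9* was lower in ARG1+ microglia, and the other 3 did not pass the test between the populations. The sequences before a RefSeq start of these 2 are shown because they belong to the members whose transcripts differed. They are the 250 bases before the transcription start in RefSeq, build GRCm38.p6, printed 5′ to 3′ on the gene's strand, with capitals at the matches of 7 short motifs on either strand. The table held such a window for 4 of the 5 members, all except *Lgals1*. The window of *Lgals3* is chr14:47373610-47373859 on the plus strand, and that of *Lgals9* is chr11:78984925-78985174 on the minus strand. In the GENCODE annotation, *Lgals3* spans chr14:47367751-47386160, so its window lies inside the gene, before an internal start. The window of *Lgals8* also lies inside its GENCODE span, and that of *Lgals9* partly overlaps the gene, which ends at 78984946. The window of *Lgals3bp*, chr11:118401960-118402209, likewise partly overlaps its gene, which ends at 118402092. Sequence before the outermost GENCODE start of *Lgals3* was not searched.
Lgals3: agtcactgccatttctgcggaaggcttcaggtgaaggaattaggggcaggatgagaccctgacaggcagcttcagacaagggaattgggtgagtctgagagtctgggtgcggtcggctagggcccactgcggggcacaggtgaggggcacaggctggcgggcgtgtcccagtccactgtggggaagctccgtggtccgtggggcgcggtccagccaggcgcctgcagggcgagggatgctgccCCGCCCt
Lgals9: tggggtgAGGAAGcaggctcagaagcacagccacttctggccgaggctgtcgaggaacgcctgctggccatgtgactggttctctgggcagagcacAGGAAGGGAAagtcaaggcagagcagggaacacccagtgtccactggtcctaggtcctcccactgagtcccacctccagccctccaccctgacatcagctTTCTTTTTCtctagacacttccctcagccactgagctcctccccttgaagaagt
The *Lgals3* window had a GC content of 66% and held 1 match, a GC box (GGGCGG) read on the opposite strand from 7 to 2 bases before the start. The *Lgals9* window had a GC content of 58.4%. It held the core of an interferon-stimulated response element (GAAANNGAA) on the opposite strand from 54 to 46 bases before the start, and the core of a composite element of PU.1 and IRF factors (GGAANNGAA) from 153 to 145 bases before it. It also held the ETS core (AGGAAG) at 243 to 238 and at 154 to 149 bases before the start, and the latter match overlaps the composite element. Among 32851 promoter windows of the same length, 32.7% held the GC box, 7.13% the response element core, 6.99% the composite core and 29.5% the ETS core. The other 3 motifs searched were an AP-1 site (TGANTCA), in 6.75% of windows, the E-box CACGTG, in 6.02%, and TATAAA, in 12.4%, and these were found in no window of the members. The windows of *Lgals3bp* and *Lgals8* held none of the 7 motifs. These matches are descriptions of letters in the windows, and binding was not measured.

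Total counts lay between 30954399 and 60625170 in ARG1- libraries and between 28356659 and 46569667 in ARG1+ libraries. A level below is given in CPM, the count scaled to the total of its library, and 3 counts, taken as the limit of detection, equalled at most 0.102 CPM. The reads carry no molecular identifiers. Of the microglia markers, 6 of 10 were lower in ARG1+ libraries (*P2ry12*, *Tmem119*, *Siglech*, *Gpr34*, *Fcrls* and *Olfml3*) and 1 was higher (*Sall1*), and their summed level was 63118 to 88062 CPM in ARG1- and 53586 to 65902 CPM in ARG1+ libraries. Border macrophage markers summed to 293 to 512 CPM and 397 to 837 CPM, with 1 of 8 called (*Stab1*, higher), none at 0 in every library and *Mrc1*, the gene of CD206, at 121 ± 16.1 and 147 ± 46.4 CPM (SD, n = 6 each). Of the monocyte markers, *Fn1* was higher and *Plac8* lower, *Chil3* was at 0, and the sums were 5.12 to 14.1 and 3.70 to 7.77 CPM. Neutrophil markers summed to 0 to 5.15 and 0 to 0.0593 CPM, and T cell markers to 0 to 0.661 and 0 to 0.613 CPM, with *Ly6g*, *Retnlg*, *Cd3e*, *Cd3d*, *Cd3g* and *Cd8a* at 0 throughout. Astrocyte markers summed to 176 to 224 and 130 to 151 CPM (*Slc1a3* lower), and oligodendrocyte markers to 263 to 383 and 171 to 261 CPM (*Cnp* lower). Endothelial markers summed to 29.8 to 58.1 and 44.9 to 83.6 CPM with *Cldn5* at 0, and neuron markers to 4.26 to 16.8 and 2.32 to 9.09 CPM, with no gene called in either list. The part of these other cells in the galectin values was not tested. *Arg1* itself had counts in 2 of the 6 ARG1+ libraries and in 0 of the 6 ARG1- libraries. The study also stated that its RNA-seq did not show *Arg1* transcripts. By RT-qPCR of sorted cells it reported *Arg1* expression only in the YFP+ population. In bulk libraries, fewer cells that make a transcript and less of it per cell cannot be told apart.

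To examine which galectins differ between the populations, ARG1+ and ARG1- microglia were compared by edgeR's quasi-likelihood test with sex as a second term, over 16908 genes. An adjusted p under 0.05 was reached by 2 of the 5 members, 1 higher and 1 lower, while 15.9% of all genes tested reached it, 6.44% higher and 9.42% lower in ARG1+ microglia. At an unadjusted p under 0.05 there were 3 members, beside 29.1% of all genes tested. The median log2 fold change of the members was 0.47, and that of all genes tested was 0.06.

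*Lgals3* (ENSMUSG00000050335, chr14:47367751-47386160, plus strand, GRCm38) encodes galectin-3. It was scarce in ARG1- microglia, where the lowest, median and highest of 6 libraries were 0.609, 1.98 and 3.12 CPM, from 23 to 125 counts. In ARG1+ microglia these values were 5.87, 7.20 and 10.04 CPM, from 198 to 347 counts. Every ARG1+ library was above every ARG1- library, as for 3.48% of all genes tested, and the highest value was that of ARG1+ female replicate 8. The means were 1.90 ± 1.03 CPM and 7.68 ± 1.48 CPM (SD, n = 6 each). The log2 fold change was 2.01 (SE 0.41), a 4.02-fold higher level in ARG1+ microglia (95% confidence interval 2.17 to 7.44), with an adjusted p of 0.00666 by edgeR. Leaving out any 1 of the 12 libraries kept the log2 fold change between 1.83 and 2.24 and the adjusted p of edgeR between 0.00642 and 0.0205. The study named *Lgals3* among its genes of interest from these samples, so its direction here is not independent evidence. It also reported galectin-3 protein in ARG1+ microglia by immunohistochemistry, and *Lgals3* among the genes shared with a published microglial cluster, neither of which was analysed here.

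*Lgals9* (ENSMUSG00000001123, chr11:78962974-78984946, minus strand) encodes galectin-9, and it moved the other way. Its lowest, median and highest levels were 576, 615 and 789 CPM in ARG1- libraries and 354, 403 and 500 CPM in ARG1+ libraries. All ARG1+ libraries lay below all ARG1- libraries, as for 6.56% of genes tested, and 5 of the 6 ARG1- libraries lay between 576 and 643 CPM. The means were 638 ± 79.1 CPM without and 420 ± 65.7 CPM with YFP (SD, n = 6 each). The log2 fold change was -0.60 (SE 0.12, 95% confidence interval -0.86 to -0.35), which leaves 0.658 of the ARG1- level, with an adjusted p of 0.00544 by edgeR. With any 1 library left out it stayed between -0.65 and -0.52, with adjusted p values of edgeR from 0.00403 to 0.0211.

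*Lgals3bp* (ENSMUSG00000033880, chr11:118392751-118402092, minus strand) encodes a secreted glycoprotein that binds galectin-3. Its lowest, median and highest levels were 121, 265 and 329 CPM in ARG1- and 294, 338 and 382 CPM in ARG1+ libraries. The populations overlapped, and the lowest value, 121 CPM, came from ARG1- male replicate 14. The means were 248 ± 73.9 and 341 ± 31.0 CPM (SD, n = 6 each), and the log2 fold change was 0.47 (SE 0.19, 95% confidence interval 0.05 to 0.89). It did not pass in edgeR (adjusted p = 0.126), and the call depended on the method, since DESeq2 gave 0.51 with an adjusted p of 0.0492. Without ARG1- male replicate 14 the edgeR values were 0.34 and an adjusted p of 0.0847.

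*Lgals1* (ENSMUSG00000068220, chr15:78926725-78930465, plus strand) encodes galectin-1. It was detected at 0.979, 1.83 and 4.18 CPM as the lowest, median and highest level in ARG1- libraries (37 to 245 counts) and at 1.68, 3.21 and 4.47 CPM in ARG1+ libraries (80 to 141 counts). The populations overlapped over most of their range. The means were 2.19 ± 1.13 and 3.14 ± 0.948 CPM (SD, n = 6 each), a log2 change of 0.58 (SE 0.33, 95% confidence interval -0.15 to 1.31, adjusted p = 0.281 by edgeR). The interval reaches from a slightly lower to a clearly higher level, so a difference was not detectable at this spread. Its processed copies took almost no counts, with 0 for *Lgals1-ps1* and at most 1 for *Lgals1-ps2* in any library.

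*Lgals8* (ENSMUSG00000057554, chr13:12439415-12464944, minus strand) encodes galectin-8, a cytosolic sensor of host glycans that become exposed on damaged vesicles. The lowest, median and highest levels were 95.2, 121 and 156 CPM in ARG1- and 92.8, 117 and 150 CPM in ARG1+ libraries, ranges that nearly coincide. The means were 123 ± 23.3 and 118 ± 19.0 CPM (SD, n = 6 each), and the log2 fold change of -0.07 had a 95% confidence interval of -0.35 to 0.22 and an adjusted p of 0.778 by edgeR. Of the 3688 exonic bases of *Lgals8*, 155 overlap *Heatr1* on the opposite strand, and reads of the pair cannot be told apart there without strand.

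**Figure D1:**
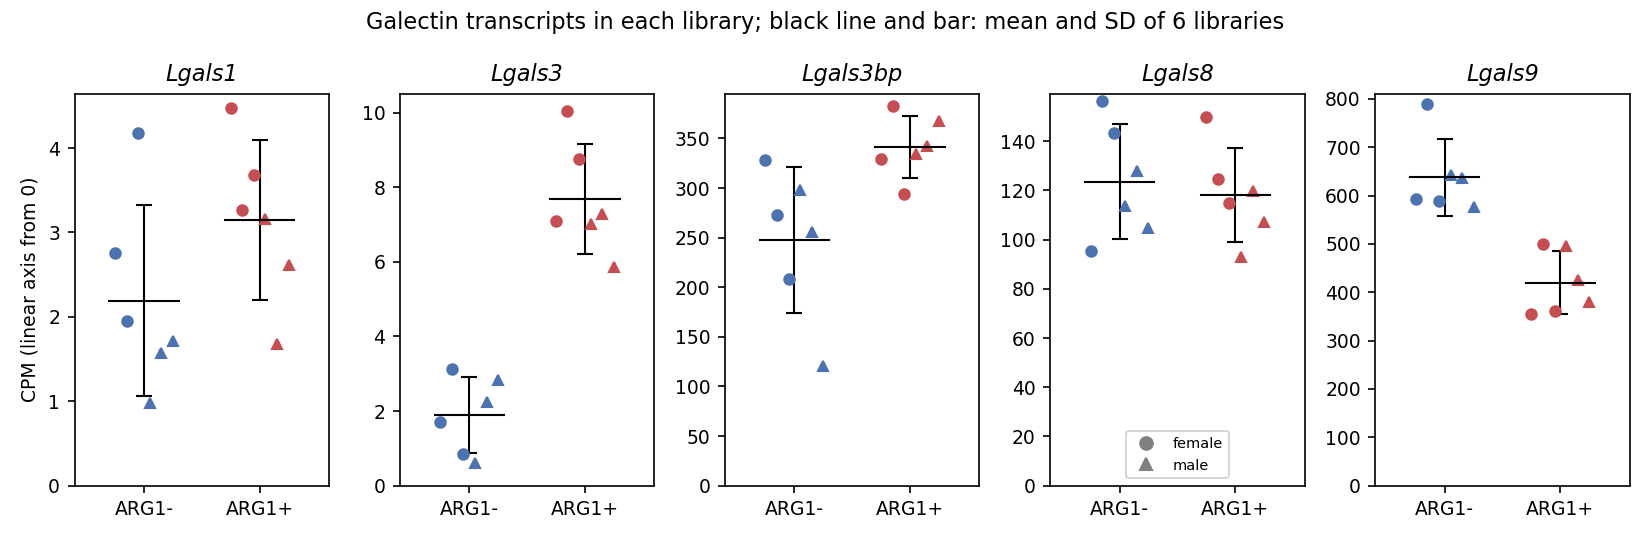
Level of each galectin gene in the 12 libraries, in CPM on a linear axis from 0. Points are libraries (circles females, triangles males), and the line and bar are the mean and SD of 6 libraries, 1.90 and 7.68 CPM for *Lgals3* and 638 and 420 CPM for *Lgals9* in ARG1- and ARG1+ microglia, the 2 genes whose populations do not overlap.

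Because the depth of a library cancels out within it, *Lgals9* was also set against *Lgals3* in each library. The ratio of *Lgals9* CPM to *Lgals3* CPM was 202 at the lowest, 315 at the median and 1057 at the highest in ARG1- libraries, and 41.4, 54.2 and 70.6 in ARG1+ libraries. The ratio is given as a description of the same values tested above. The largest ratio, in ARG1- male replicate 5, rests on 23 counts of *Lgals3*.

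Levels were compared between genes after division by the exon length of each gene. Per kilobase of exon, *Lgals9* was the most abundant member in both populations, at 298 ± 37.0 CPM per kilobase for ARG1- and 196 ± 30.8 for ARG1+ libraries (SD, n = 6 each). *Lgals3bp* followed at 87.0 ± 26.0 and 120 ± 10.9, then *Lgals8* at 33.5 ± 6.33 and 32.0 ± 5.16. The step from *Lgals9* to *Lgals3bp* was 3.43-fold in ARG1- and 1.64-fold in ARG1+ microglia, and these neighbours did not overlap in either. The last places were held by *Lgals1*, at 2.43 ± 1.25 and 3.48 ± 1.05, and *Lgals3*, at 1.02 ± 0.554 and 4.13 ± 0.795 CPM per kilobase. In ARG1- microglia *Lgals1* was above *Lgals3* in 6 of 6 libraries and in ARG1+ microglia *Lgals3* was above *Lgals1* in 5 of 6, while the ranges of this pair overlapped in both populations.

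**Figure D2:**
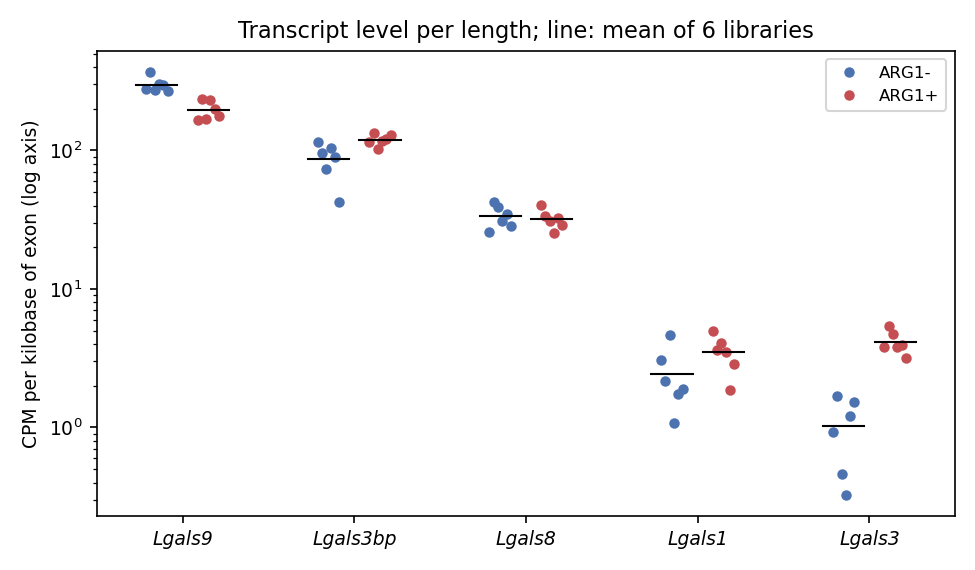
Level per kilobase of exon for each gene, on a log axis, with 1 point per library and a line at the mean of 6 libraries. *Lgals9* led at 298 and 196 CPM per kilobase in ARG1- and ARG1+ microglia, and *Lgals3* changed from the lowest place, 1.02, to a level of 4.13, close to that of *Lgals1*, 3.48.

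Summed over the 5 genes, the level was 422 ± 55.2 CPM per kilobase in ARG1- and 356 ± 35.9 in ARG1+ microglia. *Lgals9* made up 70.9% ± 4.26 of this sum in ARG1- and 54.96% ± 3.78 in ARG1+ microglia. *Lgals3bp* made up 20.4% ± 5.11 and 33.8% ± 2.39, and *Lgals8* 7.96% ± 1.28 and 9.10% ± 1.91. The shares depend on each other, so a larger share need not mean a higher level. *Lgals8* had a larger share in ARG1+ microglia with a log2 fold change of -0.07. *Lgals1* made up 0.589% ± 0.329 and 0.994% ± 0.350. *Lgals3* was the smallest share of ARG1- microglia, 0.244% ± 0.138, and made up 1.16% ± 0.215 of the ARG1+ sum (SD, n = 6 each).

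The ARG1 comparison was repeated within each sex, in a fit of the 4 group means. In females, *Lgals9* fell from 657 ± 115 to 405 ± 82.1 CPM (SD, n = 3 each), a log2 change of -0.70 (adjusted p = 0.0340 by edgeR). It was the only member called there, where 6.76% of genes tested were called. No member was called in females in 6 of the 12 fits with 1 library left out, those without ARG1- female replicate 2 or 13, ARG1+ female replicate 7 or 15, or ARG1+ male replicate 12 or 16. *Lgals3* was at 1.89 ± 1.15 CPM in ARG1- and 8.63 ± 1.47 CPM in ARG1+ females, a log2 change of 2.19 (adjusted p = 0.0522 by edgeR). In males edgeR called 0 of the 5 members, against 5.13% of all genes. There 3 members had an unadjusted p under 0.05, as did 22.8% of all genes tested. *Lgals3* was at 1.90 ± 1.16 and 6.73 ± 0.755 CPM in ARG1- and ARG1+ males (log2 fold change 1.83, adjusted p = 0.0970 by edgeR), and *Lgals9* at 618 ± 37.2 and 434 ± 58.8 CPM (log2 fold change -0.51, adjusted p = 0.0977 by edgeR). DESeq2 called both of these genes in each sex, with adjusted p values of 0.00165 and 0.0144 for *Lgals3* and 0.00550 and 0.0435 for *Lgals9* in females and males, where it called 15% and 15.1% of genes.

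A difference of the ARG1 effect between the sexes was tested directly. The interaction of *Lgals3* was 0.36 on the log2 scale (95% confidence interval -1.43 to 2.15, adjusted p = 0.968 by edgeR), and that of *Lgals9* was -0.18 (-0.70 to 0.33, adjusted p = 0.903 by edgeR). By edgeR the interaction passed for 0 of the 5 members and for 0% of all genes tested. At an unadjusted p under 0.05 there were 0 members and 1576 genes (9.32%). DESeq2 called 0 members and 287 genes (1.63%). These intervals are wide, so effects of different size in the sexes were not detectable with 3 libraries a group.

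Females and males were also compared within each population. EdgeR called 0 of the 5 members in ARG1- microglia, where 0.0946% of genes were called, and 0 in ARG1+ microglia, where 0.0355% were called, and DESeq2 called 0 in both. No member had an unadjusted p under 0.05 in either population, while 10% of genes tested had one in ARG1- and 3.12% in ARG1+ microglia. The largest value was that of *Lgals1*, at 1.95 to 4.18 CPM in ARG1- females and 0.979 to 1.72 CPM in ARG1- males. In ARG1+ microglia it was at 3.27 to 4.47 CPM in females and 1.68 to 3.16 CPM in males. The log2 difference of females minus males was 1.06 in ARG1- (adjusted p = 0.505 by edgeR) and 0.62 in ARG1+ microglia (adjusted p = 1 by edgeR).

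**Figure D3:**
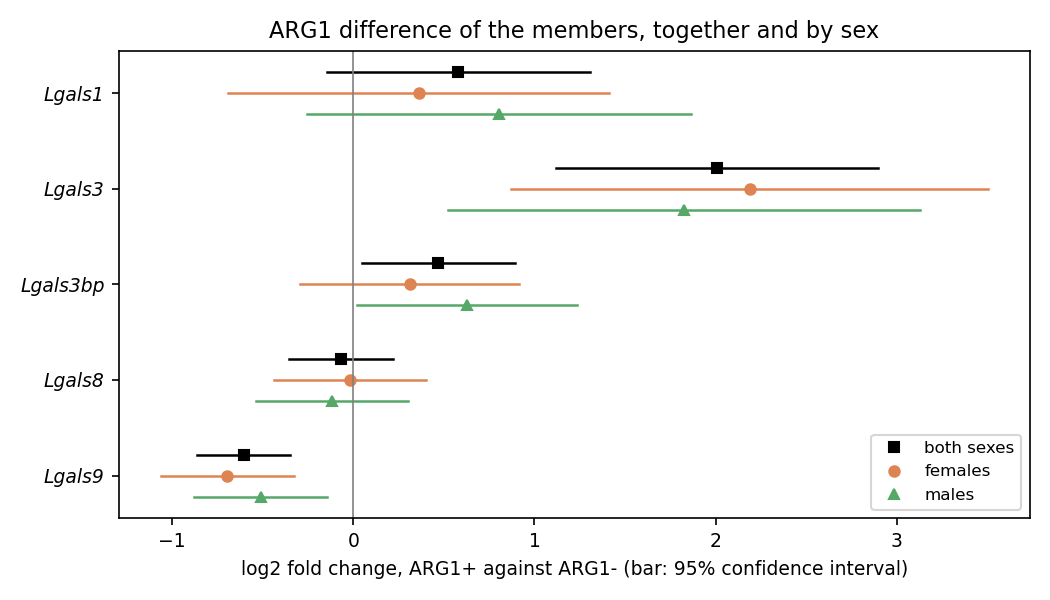
Log2 fold change of ARG1+ against ARG1- microglia for each gene in both sexes together (squares), in females (circles) and in males (triangles), with 95% confidence intervals. *Lgals3* lay at 2.01, 2.19 and 1.83 and *Lgals9* at -0.60, -0.70 and -0.51, each interval clear of 0, while the intervals of *Lgals1* and *Lgals8* include 0.

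Of 7 other genes of the galectin family, 6 were read from the same table. *Lgals12* and *Grifin* had 0 counts in all 12 libraries, *Lgals7* had 3 counts in 1 library, and *Lgals2* had at most 10 counts in a library. *Lgals6* was not analysed here. *Lgals4*, a tandem-repeat galectin known from the gut, was at 1.78 ± 0.351 CPM in ARG1- and 3.39 ± 1.38 CPM in ARG1+ microglia (SD, n = 6 each), a log2 change of 0.93 (adjusted p = 0.122 by edgeR). *Lgalsl*, a galectin-related gene, was at 5.32 ± 2.36 and 4.10 ± 3.12 CPM, a log2 change of -0.40 (adjusted p = 0.641 by edgeR). EdgeR thus called 0 of the 2 that could be tested, and DESeq2 called *Lgals4* (adjusted p = 0.0284). In edgeR 1 of them (*Lgals4*) had an unadjusted p under 0.05, as did 29.1% of all genes tested.

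Galectin ligands are built by glycosyltransferases of the Golgi, and 17 of 18 such genes could be tested. By edgeR 0 rose and 4 fell in ARG1+ microglia, which is 23.5% of the list, beside 15.9% of all genes tested (9.42% lower). The list was chosen with earlier results of these data known, so its share is only a description. *B4galt4*, which adds galactose to N-acetylglucosamine, fell from 237 ± 20.9 to 136 ± 14.99 CPM (SD, n = 6 each), a log2 change of -0.80 (adjusted p = 5.78e-04 by edgeR). *Mgat2*, which starts the second branch of complex N-glycans, fell from 240 ± 30.1 to 180 ± 20.7 CPM (log2 fold change -0.42, adjusted p = 0.0216 by edgeR). *C1galt1c1*, the chaperone of the core O-glycan galactosyltransferase, fell from 59.8 ± 11.6 to 42.7 ± 4.17 CPM (log2 fold change -0.48, adjusted p = 0.0335 by edgeR). The 4th gene, *St3gal4*, a sialyltransferase, was at 18.1 ± 3.33 and 12.4 ± 1.56 CPM (adjusted p = 0.0483 by edgeR). With 1 of the 12 libraries left out, the adjusted p of edgeR stayed under 0.05 in 12 fits for *B4galt4*, 8 for *Mgat2*, 3 for *C1galt1c1* and 1 for *St3gal4*. The list's median change was 0.02 on the log2 scale, beside 0.06 for all genes. *Mgat5* and *B3gnt2*, which build the branched and poly-LacNAc chains that galectin-3 binds, did not pass, at 0.11 and -0.41 on the log2 scale (adjusted p = 0.757 and 0.161 by edgeR).

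Of 15 genes for proteins that galectins are known to bind, 4 rose and 1 fell, 33.3% of the list beside 15.9% of all genes tested (6.44% higher). As this list too was chosen with earlier results known, the larger share is no test of enrichment. Their median change was 0.30 on the log2 scale, beside 0.06 for all genes. *Havcr2*, which encodes TIM-3, a receptor for galectin-9, rose from 176 ± 22.3 to 252 ± 26.97 CPM (SD, n = 6 each), a log2 change of 0.52 (adjusted p = 0.00791 by edgeR). Its populations did not overlap. *Trem2*, a lipid receptor of microglia that galectin-3 binds, fell from 1634 ± 119 to 1244 ± 161 CPM (log2 fold change -0.40, adjusted p = 0.0109 by edgeR). *Mertk*, a phagocytic receptor tyrosine kinase, rose from 411 ± 72.2 to 640 ± 119 CPM (log2 fold change 0.64, adjusted p = 0.0136 by edgeR). The other 2 that rose were *Igf1r*, the receptor of insulin-like growth factor 1, by 1.12 on the log2 scale, and *Ptprc*, which encodes CD45, by 0.45 (adjusted p = 0.0150 and 0.0186 by edgeR). All 5 stayed under 0.05 with any 1 of the 12 libraries left out.

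Galectin-3 and galectin-8 also mark damaged lysosomes, and all 15 genes of a list for the response to such damage were tested. There 2 rose and 2 fell, 26.7% of the list beside 15.9% of all genes tested, and the median change was 0.12 on the log2 scale beside 0.06. The same limit holds, since this list was also chosen with earlier results known. The count of 4 became 1 to 5 with 1 library left out. *Pdcd6ip*, which encodes the ESCRT adaptor ALIX, rose from 142 ± 25.2 to 202 ± 31.3 CPM (SD, n = 6 each), a log2 change of 0.51 (adjusted p = 0.0264 by edgeR). Its partner *Pdcd6*, which encodes the calcium sensor ALG-2, fell from 54.97 ± 10.1 to 36.7 ± 5.80 CPM (log2 fold change -0.58, adjusted p = 0.0241 by edgeR). *Tfe3*, a transcription factor of lysosomal genes, rose by 0.40 and *Map1lc3b*, which encodes an LC3 protein of autophagosomes, fell by 0.35 on the log2 scale (adjusted p = 0.0362 and 0.0408 by edgeR). With 1 library left out, the adjusted p stayed under 0.05 in 9 of 12 fits for *Pdcd6ip*, 6 for *Pdcd6*, 4 for *Tfe3* and 1 for *Map1lc3b*.

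**Figure D4:**
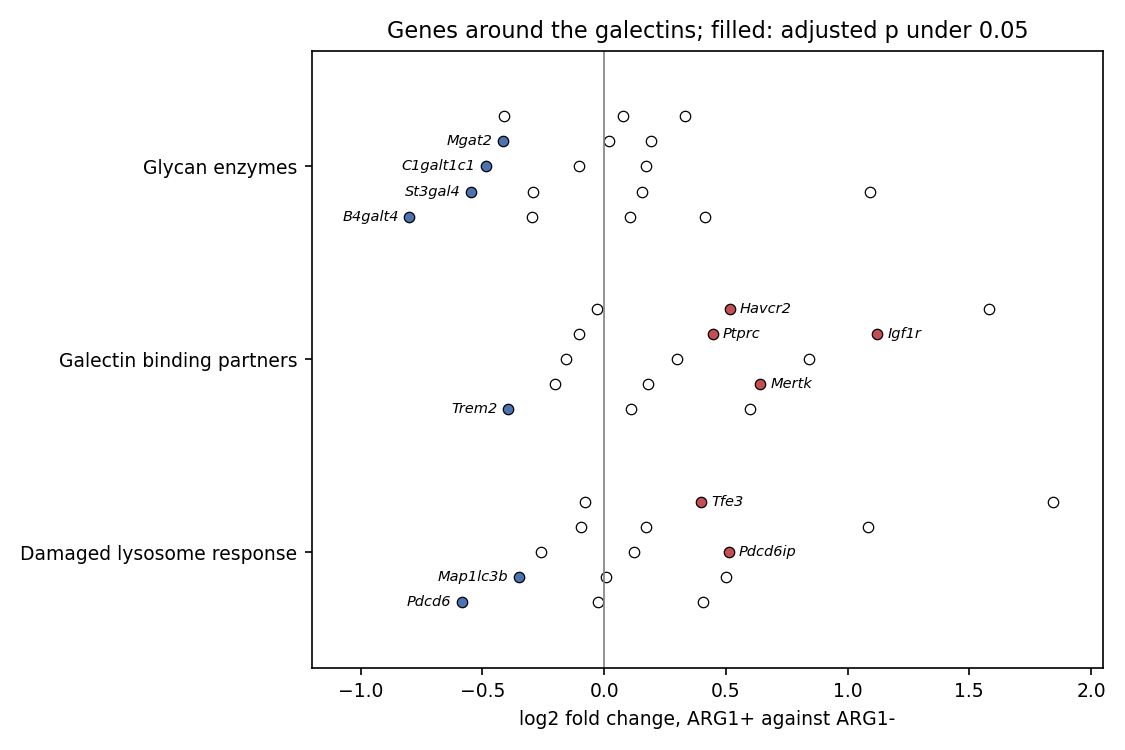
Log2 fold change of ARG1+ against ARG1- microglia for the tested genes of 3 lists, 1 point per gene, spread vertically for legibility. Filled and named points have an adjusted p under 0.05 by edgeR, 4 of 17 glycan enzymes (all lower), 5 of 15 binding partners and 4 of 15 genes of the damaged lysosome response.

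The genes whose pattern over the 12 libraries was most like that of each member were found from the root mean square difference of log2 CPM after each gene's mean was subtracted. For *Lgals9* they were *Mfng*, a fringe glycosyltransferase, *Suclg1*, a subunit of succinate-CoA ligase, and *Gm49325*, at differences of 0.09, 0.12 and 0.12. *Mfng* was at a mean of 146 CPM in ARG1- and 91.3 CPM in ARG1+ libraries, with a log2 fold change of -0.68 beside the -0.60 of *Lgals9*. For *Lgals3* they were *Snx29*, a sorting nexin, *Gm37510* and *Gm25821*, at 0.44, 0.52 and 0.53. *Snx29* was at a mean of 30.1 CPM in ARG1- and 137 CPM in ARG1+ libraries, beside 1.90 and 7.68 CPM for *Lgals3*. For *Lgals3bp* they were *Chst12*, *Tmem184b* and *Rhbdd2* at 0.15, 0.15 and 0.16, for *Lgals8* *Mtmr6*, *Suclg2* and *Zbtb18* at 0.14, 0.15 and 0.15, and for *Lgals1* *Macrod1*, *Snord12* and *Ephx1* at 0.27, 0.30 and 0.34. These differences are not scaled to the spread of each member, so a member that varies little has small ones. As a share of the member's own SD of log2 CPM, the smallest difference was 25.5% for *Lgals9* and 33.5% for *Lgals3bp*. It was 34.7% for *Lgals3*, 44.0% for *Lgals1* and 61.7% for *Lgals8*. All of these nearest genes were picked from 16908 genes on the same 12 libraries, so the likeness is a description.

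The libraries numbered 13 to 16 in their titles form 1 library of each group, and what the numbers stand for is not given in the sources used here. The log2 fold change of *Lgals3* was 2.22 in these 4 libraries and 2.10 in the other 8, and that of *Lgals9* was -0.62 and -0.56. With 1 library of each group, the set of 4 could not decide a call, so only its log2 fold changes are given. In the other 8 alone neither gene passed in edgeR (adjusted p = 0.0514 for *Lgals3* and 0.0771 for *Lgals9*), with fewer libraries than in the main fit.

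**Figure D5:**
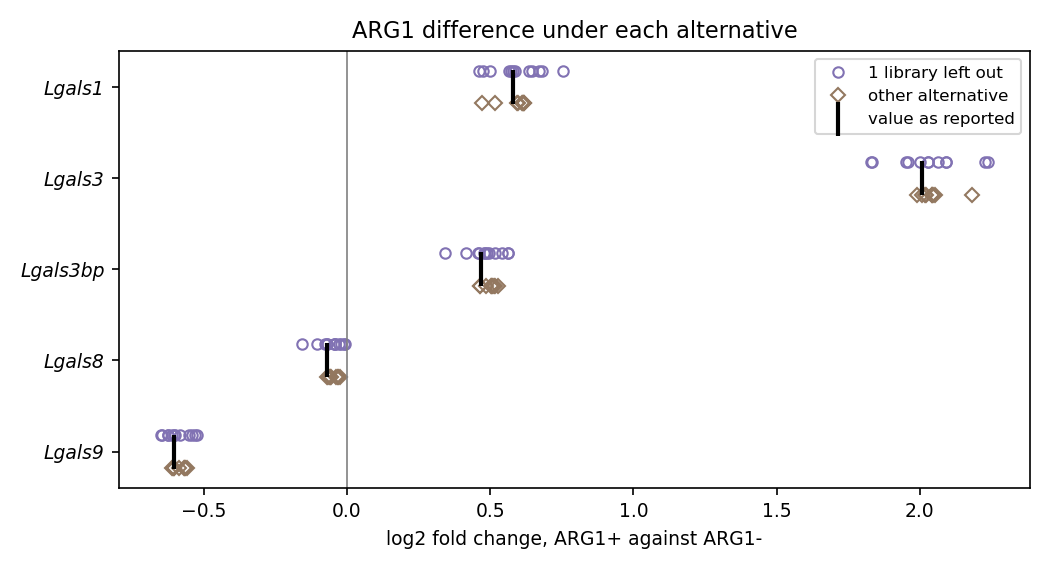
Log2 fold change of ARG1+ against ARG1- microglia for each gene as reported (black mark), with 1 library left out (circles) and under the other processing alternatives (diamonds). *Lgals3* stayed between 1.83 and 2.24 and *Lgals9* between -0.65 and -0.52 with any 1 library left out, and *Lgals8* between -0.16 and -0.01.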

How the data were processed

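RNA-seq was measured in 12 libraries. Per the labels and the study's methods, sorted cells were amplified with SMART-Seq chemistry, Nextera XT libraries were made, reads were aligned by the authors to GRCm38 (STAR 2.6.1d) and assigned to genes (featureCounts 1.5.1). The deposited values are raw counts per gene without normalization. The strand setting of the counting is not given in the sources used here. Their own comparison used DESeq2 1.28.1. All 12 columns carried the name of a library, which left 0 unused columns. Replicate libraries differed by more than sampling noise, with chi-square values of 40.7 to 125 times their degrees of freedom over 12 pairs, so each was counted once. Symbols, positions and exon lengths came from GENCODE M21.

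Low counts were removed by filterByExpr given the 4 groups, libraries were scaled by TMM, and the quasi-likelihood test of edgeR 4.0.16 (glmQLFit, glmQLFTest) was run in R 4.3.3, with Benjamini-Hochberg adjustment over 16908 genes and a limit of 0.05. Standard errors are the log2 fold change divided by the root of F. Levels are CPM of library totals over the genes tested, after these totals were multiplied by the TMM factors, and log2 CPM has a prior count of 2. Amplification favours abundant molecules, and low counts are less precise.

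The 5 genes and all lists were chosen with earlier results of these data known, and the motifs were chosen likewise. Named are these 5, the 7 other galectin family genes, the 3 genes of smallest p among those past the limit in each of the 3 other lists, and the 3 genes nearest to each member. Called genes beyond these, *Mgat5*, *B3gnt2* and *Heatr1* were named after their values were seen. Alternatives were DESeq2 1.42.0, its size factors, upper-quartile factors, no filter, at least 10 counts in every library, a term for libraries 13 to 16, ARG1 status alone, thinned counts, an exact permutation test, transcript length and each library left out. Protein and imaging data were not analysed here, and the value of 1 marker gene is not reported here.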

Additional observations from a re-analysis of the deposited data

Results flagged for a closer look

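In each population of 6 libraries, the highest and the lowest library were set against the others by Dixon's test for the 5 galectin genes, *Lgals2*, *Lgals4*, *Lgalsl* and the 9 genes named by smallest p in the 3 other lists. ARG1+ levels of *Lgals2*, at the limit of detection or below it, were left out, as were the other genes in the text. Chance flags about 1 in 20 groups, which is 1.65 of the 33 searched, and 5 stood out. The level of *Lgals9* in ARG1- female replicate 2 was 789 CPM, while the other 5 ARG1- libraries lay between 576 and 643 CPM, and the ARG1 difference of *Lgals9* passed without this library. *C1galt1c1* was at 82.2 CPM in ARG1- male replicate 14, above the 50.7 to 59.9 CPM of the other 5, and its ARG1 difference did not pass without this library (-0.34 on the log2 scale, adjusted p = 0.0664 by edgeR). *Trem2* was at 1556 CPM in ARG1+ male replicate 11, above the 1100 to 1242 CPM of the others. *Pdcd6ip* was at 262 CPM in ARG1+ male replicate 16, above the 180 to 210 CPM of the others, and *Lgalsl* was at 10.2 CPM in ARG1+ female replicate 15, above the 1.91 to 4.25 CPM of the others.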

How the results depend on the processing

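The calls of *Lgals3* and *Lgals9* held in 8 of 8 refits over all genes and in 12 of 12 with 1 library left out. Libraries numbered 13 to 16 alone, 1 of each group, gave 2.22 and -0.62 and could not decide a call. With the other 8 alone (2.10 and -0.56) both genes fell short of the limit in edgeR. *Lgals3bp* passed under DESeq2 (0.51) and with at least 10 counts in every library (0.51). The exact permutation test gave it 0.53 with an unadjusted p of 0.00866, beside an unadjusted p of 0.0315 in edgeR. With 1 library left out, log2 fold changes ranged from 0.46 to 0.75 for *Lgals1*, 1.83 to 2.24 for *Lgals3*, 0.34 to 0.56 for *Lgals3bp*, -0.16 to -0.01 for *Lgals8* and -0.65 to -0.52 for *Lgals9*. Over all genes 2682 were called, 4105 by DESeq2, and 1753 to 2669 with 1 library left out, the lowest without ARG1+ male replicate 12. DESeq2 called 1 other galectin family gene and the filter of 10 counts also 1 (*Lgals4*), and 0 were called with any library left out. Glycan enzymes called were 2 with DESeq2 size factors, 1 with no filter and 1 to 3 with 1 library left out, falling to 2 or fewer without ARG1- female replicate 1, ARG1- male replicate 14 or any 1 of the 6 ARG1+ libraries. Genes called for lysosome damage were 2 with no filter and 1 to 5 with 1 library left out, at 2 or fewer except without ARG1- female replicate 1, ARG1+ female replicate 15 or ARG1+ male replicate 11. Binding partners called were 5 to 6. In females, members called were 2 by DESeq2, 2 with the filter of 10 counts and 0 to 2 with 1 library left out, at 0 without replicates 13, 2, 15, 7, 12 or 16, and in males 2, 1 (*Lgals3*) and 0 to 0. By the longest transcript, *Lgals8* was at 42.5 and *Lgals9* at 333 CPM per kilobase over all 12 libraries, against 32.8 and 247. In these means over all 12 libraries *Lgals1* and *Lgals3* changed places, from 2.95 and 2.58 to 3.34 and 3.37. Within each population the order of the 5 members was the same by either length. *Zbtb18* changed sign around -0.02, to 0.028 by DESeq2, 0.021 with its size factors, 0.022 with the filter of 10 counts, 0.017 with no filter and 0.000822 with upper-quartile factors, and spanned -0.11 to 0.055 with 1 library left out, as *Mtmr6* spanned -0.033 to 0.12. The causes were not tested. DESeq2 and the fit with no filter moved the median of all genes to 0.12 and 0.11, from 0.06. Over the single genes named, 464 refits kept direction and side of the limit, 34 lost the call, 7 gained it and 13 changed sign. No paired analysis was possible because the groups share no replicate numbers and the labels do not say which libraries share a pool or litter, although both populations were sorted from such pools. Counts of 23 to 347 limit *Lgals1* and *Lgals3*.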
